A study of Mus musculus with 16 samples.

Results

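The genes described here are 10 genes of glycolysis: the glucose transporter gene Slc2a1, 8 genes for enzymes of the pathway (Gpi1, Aldoa, Tpi1, Gapdh, Pgk1, Pgam1, Eno1 and Pkm) and Ldha, whose product makes lactate. They were taken by symbol from a table of 7946 genes measured in alveolar macrophages, the phagocytes of the lung's air spaces. The table has a row for 8 of the 10. Pgk1 and Pgam1 have no row, so their expression was not analysed here, and they enter only the searches of gene sequences. All 8 passed the filter of at least 30 UMIs over all libraries, which 6516 genes of the table passed. A UMI (unique molecular identifier) marks 1 captured transcript.

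The macrophages came from lungs of C57BL6 mice that had inhaled an aerosol for 30 min, 3 times a week, over 10 weeks. The aerosol was PBS with E. coli LPS at 0.5 mg/ml (LPS mice) or PBS alone (PBS mice). CD45+ CD11c+ Siglec-F+ cells were sorted by their content of p16 protein, a cell cycle inhibitor used as a marker of senescence, and 5000 cells went into each sample. The 4 groups, LPS p16-positive, LPS p16-negative, PBS p16-positive and PBS p16-negative, held 4 libraries each, and positive and negative mean high and low staining within the same gate. The mice were females. The study used young mice of 10 to 14 weeks and also old mice, and the labels do not say which age entered these libraries. The labels call the replicates biological and also speak of pooled samples. Which animal or pool a library came from is not stated, and the tests reflect the spread from library to library, which may be technical.

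Glycolysis splits 1 glucose into pyruvate in the cytosol and yields ATP without oxygen. Glucose enters through transporters such as GLUT1, the Slc2a1 product. The early enzymes rearrange and cleave the sugar, the later ones harvest ATP and NADH, and lactate dehydrogenase returns NAD+ when pyruvate is turned into lactate. Mouse macrophages grown from bone marrow raise glycolysis when they meet LPS, in part through the transcription factor HIF-1, whereas alveolar macrophages are known for a comparatively low use of glycolysis and a strong use of lipids. The comparisons ask whether chronic LPS or p16 content went with a different level of these transcripts.

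Library totals were 100960 to 1176358 UMIs in the 8 LPS libraries and 13861 to 433490 UMIs in the 8 PBS libraries. The PBS libraries numbered 1 were the shallowest, with 13861 UMIs (p16-positive) and 15755 UMIs (p16-negative), so that 1 UMI there equals 72.1 and 63.5 CPM (UMIs of a gene scaled to the library's total). The limit that a count of 0 allows, 3 UMIs, equals 216 CPM in the shallowest library and 2.55 CPM in the deepest, and it covers counting error only. All 20 marker genes of the alveolar macrophage list were in the table and took 0.714% to 8.24% of the UMIs of a library. The median was 4.61% in LPS and 2.83% in PBS libraries, and 2.94% in p16-positive and 4.20% in p16-negative libraries. Alveolar type II markers (10 of 10 listed) took 0.136% to 2.43% in LPS (median 0.566%) and 0.409% to 4.98% in PBS libraries (median 1.92%). Secretory airway markers (10 of 10 listed, such as Scgb1a1) took 26.9% in the PBS p16-positive and 17.8% in the PBS p16-negative library numbered 1, 9.19% in LPS p16-positive replicate 2, and no more than 5.63% elsewhere. The part of these cell types in the values below was not tested. For LPS over PBS the estimate of each member without both PBS libraries numbered 1 stands beside its result.

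The 8 genes together took 8404 of 3734815 UMIs. Pkm had 3388 UMIs over the 16 libraries, Gpi1 1712, Aldoa 1351, Ldha 977 and Tpi1 777. Slc2a1 had 108, Eno1 60 and Gapdh 31, so the last 3 were close to the detection limit in most libraries. These totals say how precisely each gene was measured. They were not compared as transcript levels, since capture of 3′ ends differs between genes.

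Gene bodies of the members lie at chr4:119108711-119137983 (Slc2a1, plus strand), chr7:34201330-34230336 (Gpi1, minus), chr7:126795234-126800751 (Aldoa, minus), chr6:124810586-124814296 (Tpi1, minus), chr6:125161715-125166467 (Gapdh, minus), chr4:150236721-150248879 (Eno1, plus), chr9:59656368-59679375 (Pkm, plus) and chr7:46841475-46855627 (Ldha, plus) of GRCm38 in the GENCODE M21 annotation. Reads were counted by the authors only where they mapped uniquely to the 3′ end of a gene. For each member, the last 300 bases of the transcript were therefore compared with all annotated transcripts, at 95% identity over at least 100 bases. The 3′ end of Gapdh had such a match in 120 other genes, of which 116 were pseudogenes and 4 protein-coding. Eno1 had 1 match (the coding gene Eno1b), and the other members, Pgk1 and Pgam1 included, had 0. Among protein-coding genes 4.37% of those with a row and 13.8% of those with no row had at least 1 match. The counts of Gapdh and Eno1 are uncertain for this reason, and how many of their reads were set aside as non-unique was not tested. UMIs at the 3′ end of Pkm do not separate its M1 and M2 splice forms, which share that end.

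Promoter windows (RefSeq, GRCm38.p6, 250 bases before to 50 after the start) were found for all 10 genes and searched on both strands for ACGTG and GCGTG, the core letters of a HIF-1 site. At least 1 of these letter strings was in 6 of the 10 windows, against 43.8% of 27025 windows of all genes. ACGTG was in 5 (19.7% of all windows) and GCGTG in 5 (32.5% of all windows). The E-box CACGTG, which overlaps ACGTG, was in 1 (7.24% of all windows), and the GC box GGGCGG in 7 (35.9% of all windows). The windows of Gpi1, Aldoa, Tpi1 and Pkm had no HIF-1 core. Only 1 window per gene, the first listed, was searched, so other starts of a gene are not covered. Shown are the window with the most core stretches (Ldha, 5 stretches, chr7:46845554-46845853, plus strand) and that of the member with the lowest p in the LPS comparison (Tpi1, no stretch, chr6:124814109-124814408, minus strand). Capitals mark ACGTG or GCGTG on either strand, with overlapping matches joined, so CACGTG holds a match on each strand. A match is a description of the letters and no evidence of binding.
Ldha: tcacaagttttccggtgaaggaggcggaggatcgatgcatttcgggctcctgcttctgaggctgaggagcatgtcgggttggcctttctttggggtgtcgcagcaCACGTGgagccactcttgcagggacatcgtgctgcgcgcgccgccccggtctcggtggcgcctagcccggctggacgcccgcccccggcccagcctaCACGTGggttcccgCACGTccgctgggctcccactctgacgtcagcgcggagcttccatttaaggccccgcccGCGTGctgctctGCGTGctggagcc
Tpi1: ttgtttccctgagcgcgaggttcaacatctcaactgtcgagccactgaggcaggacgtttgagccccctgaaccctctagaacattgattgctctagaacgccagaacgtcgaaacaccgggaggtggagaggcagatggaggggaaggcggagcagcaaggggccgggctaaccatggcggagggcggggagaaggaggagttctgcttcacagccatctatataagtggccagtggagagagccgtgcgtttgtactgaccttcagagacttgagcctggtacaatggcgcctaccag

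After chronic LPS none of the 8 genes passed the test, in either direction. All 8 log2 fold changes of LPS over PBS lay above 0, between 0.12 (Gapdh) and 0.86 (Tpi1), as did 61% of all tested genes, and the groups overlapped for every member. The median was 0.47 for the 8 genes and 0.14 for all 6516 genes, so a value of 0.14 is the general shift against which the members are read. The genes are described next in the order of the pathway.

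Slc2a1, which carries glucose across the plasma membrane, had 16.8, 30.6, 25.3 and 43.4 CPM in the LPS p16-positive libraries numbered 1 to 4 and 9.90, 28.6, 24.0 and 29.9 CPM in LPS p16-negative. It had 72.1, 30.3, 15.5 and 16.1 CPM in PBS p16-positive and 63.5, 16.4, 25.6 and 8.92 CPM in PBS p16-negative. The highest PBS values, 72.1 and 63.5 CPM, are a single UMI each, and all 4 groups overlapped. Pooled over libraries the level was 33.8 CPM in LPS (87 UMIs) and 18.1 CPM in PBS (21 UMIs), whereas the means of the 8 libraries were 26.1 ± 9.9 and 31.1 ± 23.7 CPM (SD, n = 8 each), so the direction depended on the weight given to the 2 shallow libraries. The log2 fold change of LPS over PBS in edgeR, which weights libraries by their depth, was 0.63 (95% interval -0.36 to 1.61, adjusted p = 0.783), and it was 0.77 without both PBS libraries numbered 1.

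Gpi1 encodes glucose-6-phosphate isomerase, which turns glucose 6-phosphate into fructose 6-phosphate. It had 386, 334, 455 and 532 CPM in LPS p16-positive and 218, 522, 438 and 590 CPM in LPS p16-negative libraries. In PBS it had 216, 354, 367 and 448 CPM (p16-positive) and 127, 280, 477 and 366 CPM (p16-negative). The group means were 427 ± 86.1 and 442 ± 162 CPM after LPS and 346 ± 95.9 and 312 ± 148 CPM after PBS (SD, n = 4 each, p16-positive before p16-negative). The LPS values lay somewhat higher, but the groups overlapped. In edgeR the log2 fold change of LPS over PBS was 0.56 (95% interval -0.09 to 1.21, edgeR adjusted p = 0.641), and it was 0.33 without both PBS libraries numbered 1.

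Aldoa encodes aldolase A, which cleaves fructose 1,6-bisphosphate. It had 168, 242, 320 and 481 CPM in LPS p16-positive and 149, 321, 108 and 528 CPM in LPS p16-negative libraries, against 216, 243, 289 and 346 CPM in PBS p16-positive and 0, 280, 264 and 334 CPM in PBS p16-negative. The 0 is PBS p16-negative replicate 1, where a count of 0 allows up to 190 CPM. Both LPS groups spanned a wider range than the PBS p16-positive group, and the LPS values lay on both sides of it. LPS over PBS gave a log2 fold change of 0.33 (95% interval -0.39 to 1.06, edgeR adjusted p = 0.873). It was 0.11 without both PBS libraries numbered 1, 0.21 without the p16-negative one alone, and, without replicate 4 of an LPS group, 0.17 (p16-positive) or 0.13 (p16-negative).

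Tpi1 encodes triosephosphate isomerase, which interconverts the triose phosphates made by aldolase. It had 207, 157, 177 and 236 CPM in LPS p16-positive and 59.4, 279, 474 and 204 CPM in LPS p16-negative libraries, against 72.1, 111, 119 and 134 CPM in PBS p16-positive and 127, 132, 102 and 330 CPM in PBS p16-negative. Within the p16-positive fraction every LPS library was above every PBS library, and the lowest PBS value is a single UMI. Non-overlap in either direction held for 3.28% of the tested genes in that comparison. Within the p16-negative fraction the values overlapped (2.67% of all tested genes did not overlap there, and 0 of the 8 members). Tpi1 had the largest log2 fold change of LPS over PBS among the members, 0.86 (95% interval 0.12 to 1.60), with an unadjusted p of 0.0231 and an edgeR adjusted p of 0.398. It was 0.71 without both PBS libraries numbered 1, 0.59 without LPS p16-negative replicate 3 (474 CPM) and 1.17 without PBS p16-negative replicate 4 (330 CPM), with adjusted p = 0.723 and 0.168 in edgeR for the last 2.

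Gapdh encodes the dehydrogenase that yields NADH. It was at 1, 1, 1 and 14 UMIs in LPS p16-positive and at 0, 1, 1 and 3 UMIs in LPS p16-negative libraries, against 0, 0, 0 and 5 UMIs in PBS p16-positive and 0, 1, 2 and 1 UMIs in PBS p16-negative. No library exceeded 17.0 CPM, and 5 of 16 libraries had no UMI, where counts of 0 allow 15.5 to 216 CPM. A difference was not detectable at these counts: the log2 fold change of LPS over PBS was 0.12 with a 95% interval of -1.37 to 1.61 (edgeR adjusted p = 0.991). It was 0.03 without both PBS libraries numbered 1, and it ran from -0.11 to 0.25 when single libraries were left out. Eno1, whose product enolase makes phosphoenolpyruvate, had 2, 2, 0 and 28 UMIs in LPS p16-positive and 0, 2, 2 and 11 UMIs in LPS p16-negative libraries. It had 0, 1, 4 and 6 UMIs in PBS p16-positive and 0, 0, 2 and 0 UMIs in PBS p16-negative. Pooled over libraries this is 18.2 CPM in LPS and 11.2 CPM in PBS, and the log2 fold change was 0.59 (95% interval -0.85 to 2.03, edgeR adjusted p = 0.888). The estimate for Eno1 was 0.48 without both PBS libraries numbered 1, 0.29 without LPS p16-positive replicate 4, 0.30 without LPS p16-negative replicate 4, 0.27 without PBS p16-negative replicate 4 and 0.90 without PBS p16-positive replicate 3. For both genes the deepest libraries carried most of the counts.

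Pkm encodes pyruvate kinase, the last step to pyruvate, and was the best measured member. It had 470, 728, 834 and 1144 CPM in LPS p16-positive and 565, 750, 487 and 1132 CPM in LPS p16-negative libraries, against 216, 414, 899 and 930 CPM in PBS p16-positive and 444, 559, 1116 and 687 CPM in PBS p16-negative. Each group spanned more than 2-fold from its lowest to its highest library. The means were 794 ± 279 and 733 ± 288 CPM after LPS and 615 ± 355 and 702 ± 294 CPM after PBS (SD, n = 4 each, p16-positive before p16-negative). LPS over PBS gave a log2 fold change of 0.37 (95% interval -0.34 to 1.08, edgeR adjusted p = 0.848). It was 0.12 without both PBS libraries numbered 1, 0.23 without the p16-positive one alone, 0.25 without LPS p16-positive replicate 4 and 0.58 without PBS p16-negative replicate 3.

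Ldha encodes the A subunit of lactate dehydrogenase. It had 134, 242, 219 and 362 CPM in LPS p16-positive and 158, 129, 78.1 and 328 CPM in LPS p16-negative libraries, against 216, 142, 165 and 265 CPM in PBS p16-positive and 444, 197, 145 and 227 CPM in PBS p16-negative. The single highest value, 444 CPM, is 7 UMIs in PBS p16-negative replicate 1. The means over 8 libraries were 206 ± 100 CPM in LPS and 225 ± 98.2 CPM in PBS (SD, n = 8 each), and pooled over libraries the levels were 282 and 217 CPM, so the order of LPS and PBS again turned with the weight of the shallow libraries. In edgeR the log2 fold change of LPS over PBS was 0.24 (95% interval -0.40 to 0.88, edgeR adjusted p = 0.920). It was 0.24 also without both PBS libraries numbered 1, 0.07 without replicate 4 of either LPS group, 0.36 without replicate 3 of LPS p16-negative and 0.16 without replicate 2 of PBS p16-positive.

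**Figure D1:**
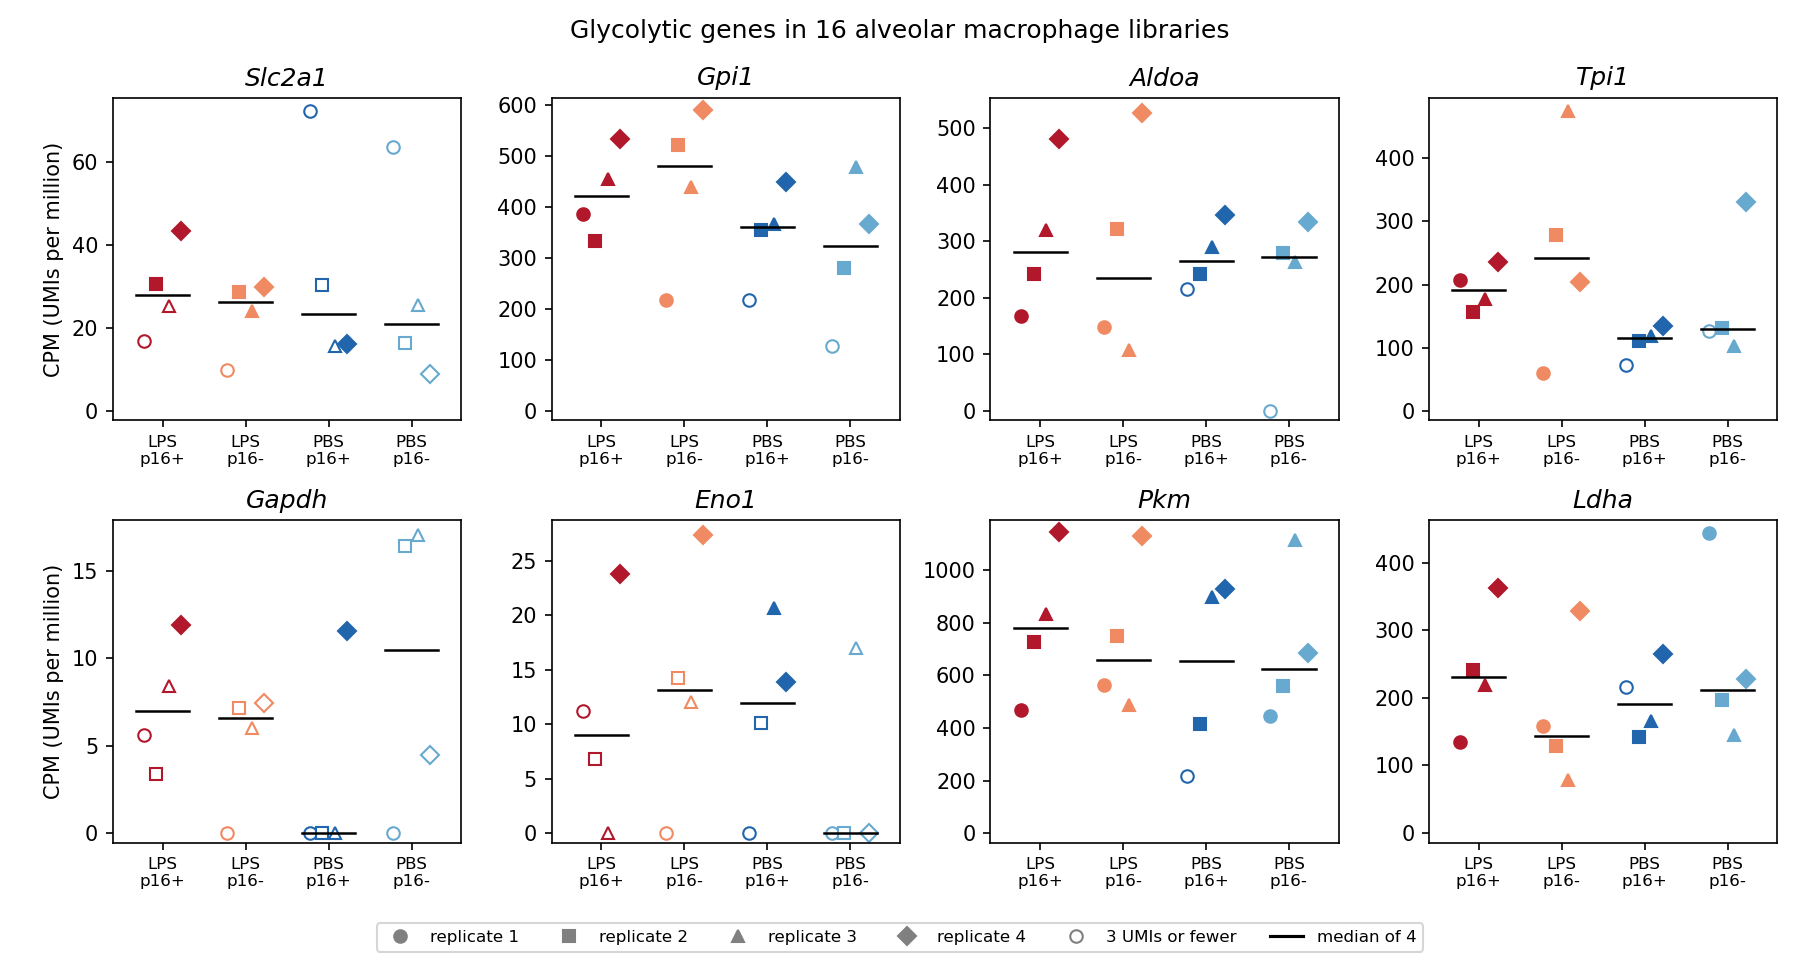
Level of each of the 8 genes in CPM (vertical axis) in the 4 groups of 4 libraries. Symbols give the replicate number, open symbols are libraries with 3 UMIs or fewer of the gene, and bars are medians. The groups overlap in every panel except LPS p16-positive against PBS p16-positive for Tpi1 (157 to 236 against 72.1 to 134 CPM), and libraries numbered 4 are often high.

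The edgeR quasi-likelihood test over both p16 fractions called 0 of the 8 members at an adjusted p of 0.05, where 0.921% of all tested genes were called (60 of 6516). Limma-voom also called 0, and DESeq2 called 0 of the 6 members to which it gave an adjusted p (Gapdh and Eno1 had none). At an unadjusted p under 0.05 there was 1 member (Tpi1), against 9.27% of all genes. By CPM, 0 of the 8 had LPS and PBS libraries that did not overlap, against 0.138% of all genes. The intervals still allow a log2 change of 1.06 for Aldoa, 1.61 for Gapdh and 2.03 for Eno1, and values up to these bounds stay compatible with the libraries. The median of 0.47 was 0.29 without the PBS replicate 1 libraries and 0.19 in limma-voom. It was 0.29 without LPS p16-positive replicate 4, 0.30 without LPS p16-negative replicate 4 and 0.70 without PBS p16-negative replicate 3. In these last fits Gapdh fell under the filter, so the medians are over 7 genes and part of their move is a change of gene set.

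Within the p16-positive fraction the log2 fold changes of LPS over PBS ran from -0.01 (Eno1) to 0.98 (Tpi1, 95% interval -0.11 to 2.06), with a median of 0.54 for the 8 genes and 0.19 for all genes. Within the p16-negative fraction they ran from -0.60 (Gapdh) to 1.66 (Eno1, 95% interval -0.96 to 4.28), with a median of 0.43 for the 8 genes and 0.10 for all genes. The edgeR test called 0 members in either fraction, by adjusted or unadjusted p, where the share of all genes called was 0.046% (p16-positive) and 0.0153% (p16-negative) and the share with an unadjusted p under 0.05 was 6.15% and 4.39%. Limma-voom also called 0 in both, and so did DESeq2, in which Gapdh and Eno1 had no adjusted p in either fraction and Slc2a1 none in the p16-negative one. The difference between the fractions in the response to LPS was tested as an interaction, which called 0 members and 0% of all genes in edgeR and 0 members in DESeq2 and limma-voom (1.55% of all genes had an unadjusted p under 0.05, none of them a member). Its estimates ranged from -1.67 (Eno1, 95% interval -4.88 to 1.53) to 1.25 (Gapdh, 95% interval -1.82 to 4.32), and for Pkm it was 0.28 (95% interval -1.20 to 1.75). These intervals are wide, so a different response of the fractions was neither shown nor bounded closely.

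Between the p16 fractions no member passed the test, and the members did not lean one way. Over both treatments 4 of the 8 genes had a log2 fold change of p16-positive over p16-negative above 0 and 4 below, against 56.9% of all genes above 0. The median was 0.02 for the 8 genes and 0.08 for all genes. Tpi1 lay lowest at -0.61 (95% interval -1.34 to 0.13, edgeR adjusted p = 0.658), with a median of 145 CPM in p16-positive and 168 CPM in p16-negative libraries. The estimate for Tpi1 was -0.31 without LPS p16-negative replicate 3, -0.33 without PBS p16-negative replicate 4 and -0.28 in limma-voom. Pkm was at -0.05 (95% interval -0.76 to 0.66), Gpi1 at -0.04 (-0.69 to 0.60), Aldoa at 0.09 (-0.64 to 0.81) and Ldha at 0.13 (-0.51 to 0.77). Slc2a1 was at 0.22 (95% interval -0.75 to 1.19), Eno1 at 0.21 (-1.19 to 1.62) and Gapdh at -0.13 (-1.59 to 1.34). For Gpi1 and Ldha, which had the narrowest intervals, changes larger than 0.77 on the log2 scale lie outside them.

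The edgeR test of the p16 fractions called 0 of the 8 members, where 1.41% of all tested genes were called (92, all higher in the p16-positive fraction), and 0 members had an unadjusted p under 0.05, against 10.2% of all genes. Limma-voom called 0 as well, and DESeq2 0 of 6, with no adjusted p for Gapdh and Eno1. In CPM the fractions overlapped for all 8 genes (0.0307% of all genes did not overlap). Within LPS the estimates of p16-positive over p16-negative ran from -0.51 (Tpi1) to 0.44 (Ldha), and within PBS from -0.87 (Gapdh) to 1.36 (Eno1), with 0 members called in either by edgeR, DESeq2 or limma-voom, and 0% of all genes by edgeR. At an unadjusted p under 0.05 there were 0 members in both, against 6.83% of all genes within LPS and 5.54% within PBS. Non-overlap in CPM held for 0 members in both, against 2.16% of all genes within LPS and 3.36% within PBS.

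**Figure D2:**
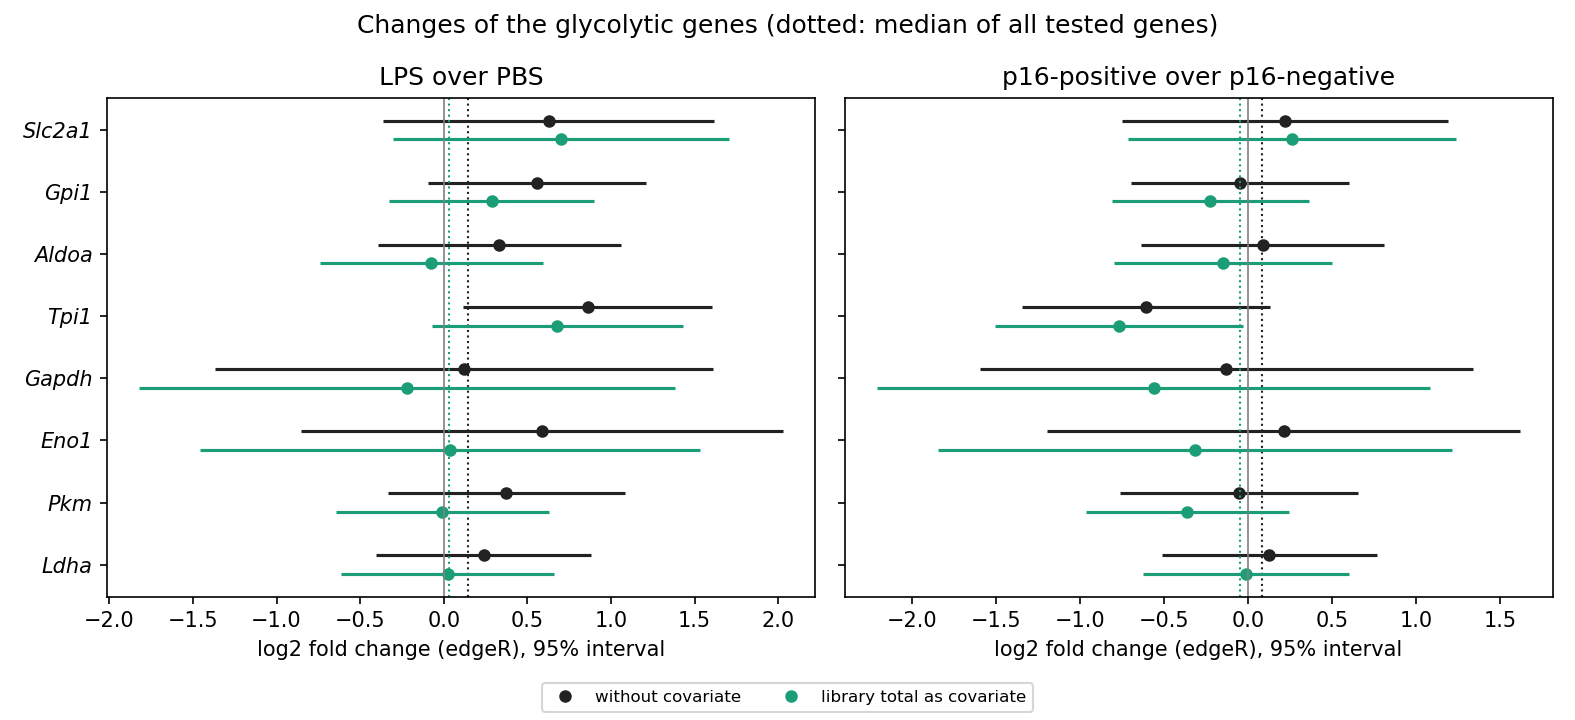
Log2 fold changes of the 8 genes with 95% intervals (horizontal axis) for LPS over PBS and for p16-positive over p16-negative, from edgeR without (black) and with (green) the library total as a covariate. Dotted lines are medians of all 6516 tested genes. The black LPS values all lie above 0, and only the interval of Tpi1 (0.12 to 1.60) leaves 0 out, while the green values centre on 0.03.

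The share of UMIs on the 8 genes overlapped between the groups and differed between the replicate numbers. It was 0.116% to 0.285% in LPS libraries (median 0.189%) and 0.101% to 0.216% in PBS libraries (median 0.168%), and 0.101% to 0.284% in p16-positive (median 0.181%) and 0.116% to 0.285% in p16-negative libraries (median 0.179%). The 4 libraries numbered 1, of all 4 groups, held 0.101% to 0.140%, and the 4 numbered 4 held 0.196% to 0.285%, so these sets did not overlap. The medians were 0.118%, 0.161%, 0.196% and 0.25% for the numbers 1, 2, 3 and 4. Libraries numbered 4 had 224301 to 1176358 UMIs and those numbered 1 had 13861 to 178681 UMIs. Number and library total did not always go together: LPS p16-positive replicate 1 held 0.140% at 178681 UMIs, and PBS p16-negative replicate 3 held 0.216% at 117352 UMIs. The labels do not say that a number marks a shared batch, and the part of number and that of depth in the share were not tested against each other. Secretory airway markers took 0.572% to 26.9% of UMIs in libraries numbered 1 and 0.0784% to 0.376% in those numbered 4, and their part in the difference was not tested.

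**Figure D3:**
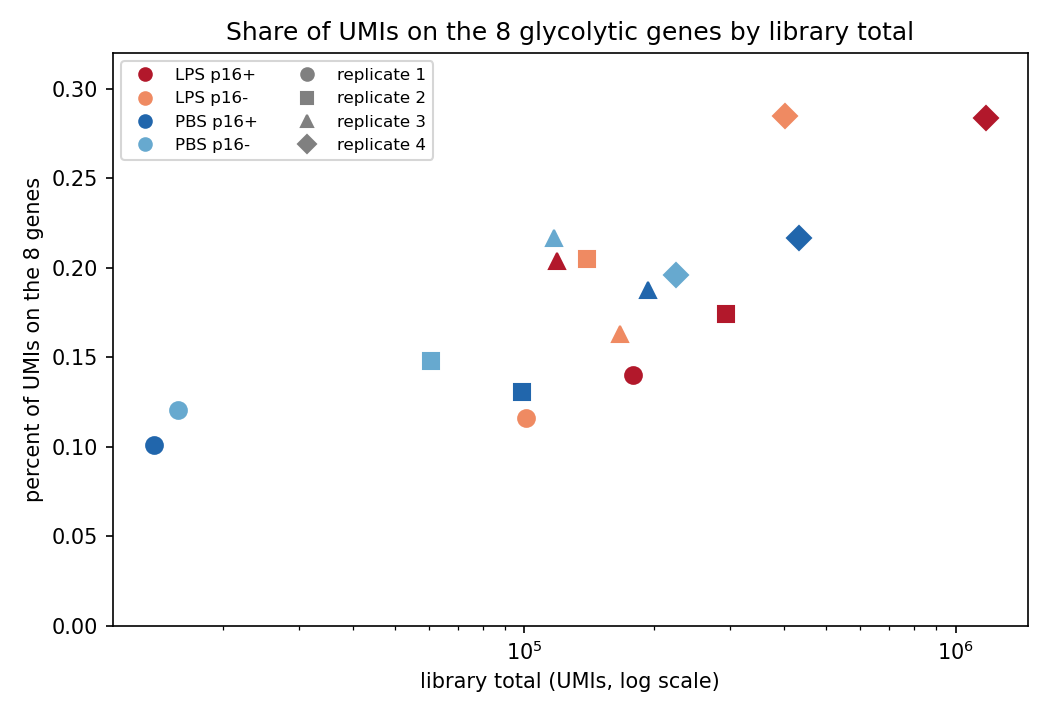
Percent of a library's UMIs that fell on the 8 genes (vertical axis) against the library total on a log scale. Colours give the groups and symbols the replicate numbers. Shares run from 0.101% in the shallowest library to 0.285%, and the libraries numbered 1 all lie below those numbered 4.

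Since the deepest library was from LPS lungs and the 4 shallowest from PBS lungs, the fit was repeated with the log2 library total as a covariate, an alternative chosen after the data were seen. With it the median log2 fold change of LPS over PBS was 0.03 for the 8 genes and 0.03 for all genes, 5 of the 8 lay above 0 (52.3% of all genes), and 0 were called (0.599% of all genes). Pkm was then at -0.01 for LPS over PBS (95% interval -0.64 to 0.63), Aldoa at -0.08 (-0.74 to 0.59), Ldha at 0.02 (-0.61 to 0.66) and Gpi1 at 0.29 (-0.33 to 0.90). Tpi1 was at 0.68 (95% interval -0.07 to 1.43, edgeR adjusted p = 0.626) and Slc2a1 at 0.70 (-0.30 to 1.70), so the last 2 kept most of their size. For p16-positive over p16-negative the median was -0.27 for the 8 genes and -0.05 for all genes, 1 of 8 lay above 0 (46.2% of all genes) and 0 were called (3.76% of all genes). Tpi1 was at -0.77 (95% interval -1.51 to -0.03, edgeR adjusted p = 0.303). Treatment and depth are partly confounded in these libraries, so depth and LPS can be told apart only as far as this model allows. With the replicate number as a block in place of the library total the median for LPS over PBS was 0.60.

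The same fit gives the change per doubling of the library total. It was above 0 for 7 of the 8 genes, with a median of 0.33, against 67.6% of all genes and a median of 0.13. Pkm changed by 0.40 on the log2 scale per doubling (95% interval 0.17 to 0.63, edgeR adjusted p = 0.0517), Aldoa by 0.40 (0.13 to 0.66, adjusted p = 0.0685) and Gpi1 by 0.29 (0.06 to 0.52, adjusted p = 0.147), all in edgeR. None of the 8 passed the adjusted threshold, where 3.35% of all genes did, and 3 had an unadjusted p under 0.05, against 21.2% of all genes. Slc2a1 was at -0.04 per doubling (95% interval -0.43 to 0.35), an interval that holds both 0 and the members' median of 0.33.

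The spread within groups went beyond counting error for the well measured members. Chi-square per degree of freedom, which is about 1 where only counting error acts, was 19.4 for Pkm, 12.3 for Aldoa, 7.96 for Ldha, 6.77 for Tpi1 and 4.91 for Gpi1. The median was 6.22 over the 1243 genes with 500 to 5000 UMIs, and the measure grows with the count of a gene, so these members were not ranked against that median. It was 1.40 for Eno1, 0.98 for Slc2a1 and 0.68 for Gapdh, whose counts are too low to show more. In bulk samples fewer cells of a type and less RNA per cell cannot be told apart.

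Genes whose profile lay nearest to the members' mean profile were sought among 1605 other genes of at least 100 CPM, by the root mean square difference of centred log2 CPM over the 14 libraries without the PBS libraries numbered 1. The nearest were Shisa5 (0.190), Calr (0.216), Itm2c (0.269), Glg1 (0.280) and Rps28 (0.281), with a median of 0.586 over the candidates. Among the members, Gpi1 was at 0.180 and Pkm at 0.294 from the mean that they are part of, whereas Tpi1 was at 0.655 in these 14 libraries, farther than the median candidate. Over all 16 libraries Shisa5 stayed nearest (0.184) and was followed by Rer1 (0.300), Sin3b (0.302) and Eif3k (0.306), while Tpi1 (0.647) was nearer than the median candidate (0.787) and Aldoa (0.980) farther. All these profiles share the same libraries and their depths.

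No other gene of glycolysis passed the test either. Of 21 listed genes for isoenzymes and further enzymes 11 had a row and 10 were tested, with 0 called in either direction by edgeR. For LPS over PBS 8 of 10 log2 fold changes were above 0 (61% of all genes), with a median of 0.63 (0.14 for all genes). Pfkl, the liver-type phosphofructokinase that commits sugar to glycolysis, had 78.1 to 248 CPM in LPS libraries (median 184) and 63.5 to 132 CPM in PBS libraries (median 95.7). Its log2 fold change of LPS over PBS was 1.03 ± 0.32 (SE, edgeR adjusted p = 0.124), the lowest p among the listed glycolytic genes. The hexokinase gene Hk3 was at 0.81 ± 0.51 and the phosphoglucomutase gene Pgm1 at 0.77 ± 0.52, while the enolase gene Eno3 was at -0.93 ± 0.58 (SE, edgeR adjusted p = 0.690, 0.724 and 0.698). Of the p16 comparison 0 of 10 were called as well, with a median of 0.22. The lactate dehydrogenase gene Ldhb had the lowest p of the list there, at 2.13 ± 0.69 (SE, edgeR adjusted p = 0.122). It had 0 to 433 CPM in p16-positive (median 36.2) and 0 to 190 CPM in p16-negative libraries (median 23.4), which overlapped. Ldhb had 224 UMIs in all, and its p16-negative maximum equals 3 UMIs in PBS p16-negative replicate 1. In LPS libraries its maximum was 368 CPM against a median of 26.1 CPM. The part of other cell types in the Ldhb estimate was not tested.

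Enzymes that set the level of fructose 2,6-bisphosphate, the activator of phosphofructokinase, were tested for 3 of 5 listed genes, with 0 called in either comparison. Pfkfb3 was at 1.63 ± 1.01 for LPS over PBS on 40 UMIs in all, Pfkfb4 at 0.16 ± 0.40 and Tigar at -0.51 ± 0.58 (SE, edgeR adjusted p = 0.575, 0.973 and 0.876). Of 8 listed glucose and lactate transporters 4 were tested and 0 called. Slc16a3, the lactate exporter MCT4, had 208 to 453 CPM in LPS libraries (median 343) and 0 to 330 CPM in PBS libraries (median 275), with a log2 fold change of 0.70 ± 0.35 (SE, edgeR adjusted p = 0.547). Its chaperone gene Bsg was at 0.52 ± 0.38, and the sugar transporter genes Slc2a6 and Slc2a8 were at -0.11 ± 0.45 and -0.28 ± 0.45 (SE). These lists too had no member past the threshold.

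Pyruvate entry into mitochondria was covered by 5 tested genes of 13 listed, again with 0 called and a median of 0.14 for LPS over PBS. The carrier subunit genes Mpc1 and Mpc2 pointed in opposite directions, at 0.91 ± 0.49 and -0.48 ± 0.48 (SE), and Pdhb and Pdk2, a subunit and an inhibitory kinase of pyruvate dehydrogenase, were at 0.53 ± 0.79 and -0.33 ± 0.40 (SE). In the pentose phosphate pathway, which branches off at glucose 6-phosphate, 5 of 7 listed genes were tested and 0 called. For LPS over PBS 4 of the 5 were above 0 (61% of all genes), with Pgls at 0.75 ± 0.33, Pgd at 0.64 ± 0.34, Taldo1 at 0.47 ± 0.40 and Rpia at 0.31 ± 0.32 (SE, edgeR adjusted p = 0.452, 0.605, 0.819 and 0.868). For p16-positive over p16-negative 0 of the 5 were above 0 (56.9% of all genes), with a median of -0.51 (0.08 for all genes) and no call. Of gluconeogenesis 2 of 6 genes were tested and 0 called: G6pc3 was at 0.76 ± 0.33 and Pcx at -0.42 ± 0.65 for LPS over PBS, and Pcx was at 2.40 ± 0.71 for p16-positive over p16-negative (SE, edgeR adjusted p = 0.410, 0.947 and 0.0617). Pcx had 146 UMIs in all. Its levels were 8.50 to 225 CPM in p16-positive (median 43.1) and 0 to 51.1 CPM in p16-negative libraries (median 15.4), which overlapped. The part of other cell types in the Pcx estimate was not tested.

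**Figure D4:**
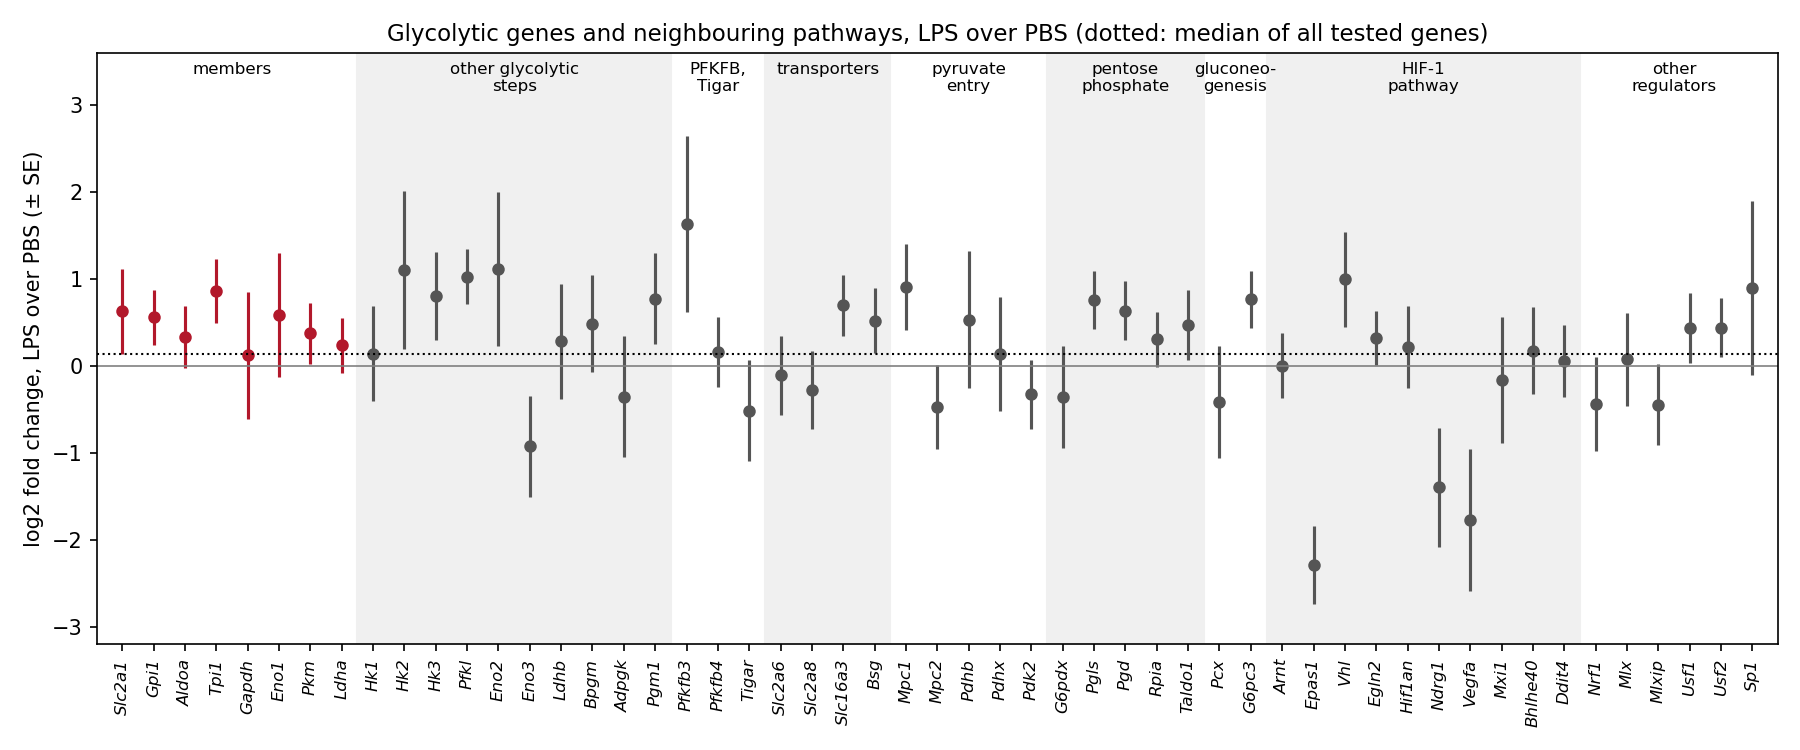
Log2 fold change of LPS over PBS with its SE (vertical axis) for the 8 members (red) and the tested genes of 8 neighbouring lists (grey). The dotted line is the median of all tested genes, 0.14. Epas1, at -2.29, is the only gene shown that passed the adjusted threshold.

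Of 22 listed genes of the HIF-1 pathway and its targets outside glycolysis 10 were tested, and 1 was called in each comparison. Of all tested genes 0.921% were called for LPS over PBS and 1.41% for p16-positive over p16-negative. Epas1, which encodes the HIF-1 relative HIF-2α, fell with LPS: it had 42.0 to 378 CPM in LPS libraries (median 87.0) and 102 to 2886 CPM in PBS libraries (median 665). The log2 fold change of LPS over PBS was -2.29 ± 0.45 (SE, edgeR adjusted p = 0.00847). It was -1.58 (adjusted p = 0.0609) without both PBS replicate 1 libraries and -1.44 (adjusted p = 0.120) with the library total as a covariate, so the call was lost in edgeR under both. Epas1 is known for high levels in lung endothelium, and the 9 endothelial markers in the table took 0.0172% to 0.252% of UMIs in LPS libraries (median 0.0673%) and 0.0818% to 1.12% in PBS libraries (median 0.474%). Their part in the fall of Epas1 was not tested.

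Ddit4, which encodes REDD1, an inhibitor of mTORC1 that is induced by stress, rose in the p16-positive fraction. It had 50.2 to 364 CPM in p16-positive libraries (median 201) and 17.0 to 132 CPM in p16-negative libraries (median 58.5), which overlapped. The log2 fold change was 1.79 ± 0.42 (SE, edgeR adjusted p = 0.0224). The adjusted p was 0.0619 in limma-voom. It was between 0.0611 and 0.116 when one of 6 libraries was left out, namely replicate 2 of either p16-positive group (log2 fold change 1.51 when it came from LPS and 1.65 when it came from PBS lungs) or replicate 3 or 4 of either p16-negative group. Endothelial markers took 0.0236% to 1.12% of UMIs in p16-positive libraries (median 0.372%) and 0.0172% to 0.457% in p16-negative libraries (median 0.0766%). Secretory airway markers took 0.234% to 26.9% (median 0.676%) in p16-positive and 0.0784% to 17.8% (median 0.372%) in p16-negative libraries. Ciliated cell markers took 0.0543% to 0.682% (median 0.0952%) and 0.0144% to 0.140% (median 0.0530%), and pan-epithelial markers 0.0681% to 0.516% (median 0.145%) and 0.0602% to 0.159% (median 0.115%), p16-positive before p16-negative. Alveolar type II markers took 0.136% to 4.98% (median 1.23%) and 0.202% to 2.64% (median 0.537%) in the same order. Alveolar macrophage markers went the other way, at 0.714% to 6.17% (median 2.94%) and 2.06% to 8.24% (median 4.20%). The part of these cells in the rise of Ddit4 was not tested.

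The remaining tested genes of that list did not pass. Vegfa and Ndrg1, both known HIF targets, were at -1.77 ± 0.82 and -1.40 ± 0.68 for LPS over PBS, on 42 and 34 UMIs, and Vhl, whose product marks HIF for degradation, and Egln2, a HIF prolyl hydroxylase, were at 1.00 ± 0.55 and 0.32 ± 0.31 (SE, edgeR adjusted p = 0.516, 0.472, 0.591 and 0.858). The list's median was 0.03, against 0.47 for the 8 glycolytic members and 0.14 for all genes. The list mixes genes for HIF subunits, for proteins that limit HIF and for targets, so its median gives no direction of HIF activity. Hif1a was listed but was not among the tested genes. Of 9 other regulators of glycolytic genes 6 were tested and 0 called, with Usf1 at 0.44 ± 0.40, Usf2 at 0.44 ± 0.34, Mlxip at -0.45 ± 0.47 and Sp1 at 0.90 ± 1.01 (SE). No list of glycolytic enzymes, transporters or regulators thus held a gene called in the LPS comparison other than Epas1.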

How the data were processed

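The authors sorted alveolar macrophages, prepared bulk MARS-seq libraries with UMIs and processed reads with the UTAP pipeline (version not given in the sources used here), with mm10 as the build and only unique alignments at the 3′ ends of RefSeq genes kept. The values used are the raw UMI counts per gene and library as deposited by the authors, in 16 libraries with totals of 13861 to 1176358 UMIs. Every listed gene has at least 6 UMIs in its highest library, and no mitochondrially encoded gene is listed, so library totals cover listed genes only. A further 32 per-sample columns of normalized and regularised log values were not used, nor were the columns of fold changes and p-values, which hold the authors' own comparisons of pairs of groups with DESeq2.

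Groups came from the sample titles. Genes with at least 30 UMIs over all libraries (6516) entered edgeR 4.0.16 (R 4.3.3), whose quasi-likelihood F test was run with TMM factors. P-values were adjusted by Benjamini-Hochberg over all these genes, with a threshold of 0.05. The LPS and p16 comparisons shared an additive model, and a model with 1 mean per group gave the interaction and the comparisons within 1 treatment or fraction. Intervals are Wald intervals at 95%. The scripts were tested on simulated data. Matches of 3′ ends were found with BLAST 2.17.0 on GENCODE M21 transcripts.

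Alternatives were RLE factors, DESeq2 1.42.0, limma-voom (limma 3.58.1) with sample weights, no filter, filterByExpr, leaving out libraries, replicate blocks, fits on only the 8 compared libraries, other CPM totals and, chosen after seeing the data, the library total as a covariate. Same-numbered PBS libraries of the 2 fractions deviated together (correlation of deviations from group means 0.146 to 0.345 in 4 of 4 pairs). Between the LPS fractions 3 of 4 pairs exceeded 0.1, with values up to 0.610. Between LPS and PBS 3 of 4 (p16-positive, up to 0.314) and 1 of 4 (p16-negative) exceeded 0.1. Whether same-numbered libraries share animals, and what part depth and cell content have in these correlations, was not tested.

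All members are named whatever their p, with the genes called in each pathway list and up to 4 others of lowest p in the LPS comparison. Ldhb is named as well, for its p in the p16 comparison. Genes nearest in profile were the 5 with the smallest difference from the members' mean profile (log2 CPM on TMM-scaled totals, prior count 2), of which 1 is not reported here. Members, pathway lists and marker lists were chosen with earlier results of these data known.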

Additional observations from a re-analysis of the deposited data

Results flagged for a closer look

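Among 36 sets of 4 libraries (the 8 genes and their summed share of UMIs, in each of the 4 groups), 3 held a library far from its group, and chance alone sets apart about 1 in 20 such sets. Tpi1 was at 330 CPM (74 UMIs) in PBS p16-negative replicate 4, while the other 3 libraries of that group lay between 102 and 132 CPM. Gapdh was at 11.5 CPM (5 UMIs) in PBS p16-positive replicate 4 and at 0 in the other 3, and Eno1 was at 17.0 CPM (2 UMIs) in PBS p16-negative replicate 3 and at 0 in the other 3. With all others at 0 the measure of distance is at its maximum whatever the value. The 0 counts of Gapdh allow 216, 30.3 and 15.5 CPM and those of Eno1 190, 49.3 and 13.4 CPM, so the Gapdh value lies under all of these limits and the Eno1 value under all but the last, and neither is shown to lie apart from its group.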

How the results depend on the processing

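The count of called members was 0 in all 171 recounts under 26 alternative settings (edgeR, DESeq2 and limma-voom), the replicate block included, so leaving out any library gave 0 to 0 calls. DESeq2 gave no adjusted p to Gapdh and Eno1 in either main comparison. Gapdh, Eno1 and Slc2a1 left the test under filterByExpr, and Gapdh left it in 4 of the fits without a library, whose medians are over 7 genes. The median log2 fold change of the members for LPS over PBS was 0.030 with the library total as a covariate, 0.60 with a replicate block by number, and 0.29 to 0.70 when libraries were left out. For p16-positive over p16-negative it was 0.09 with that block, 0.06 with the block by treatment and number, and -0.08 to 0.25 when libraries were left out. The block changed no call of a member.

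Signs turned only for estimates of 0.37 or less in size, and none of these was called. For LPS over PBS, Gapdh was at -0.13 in DESeq2, -0.056 in limma-voom, -0.22 with the covariate and -0.11 to 0.25 without single libraries, and the covariate turned Pkm (-0.0079) and Aldoa (-0.076). For p16-positive over p16-negative, the covariate turned Ldha (-0.012), Eno1 (-0.31) and Aldoa (-0.15), limma-voom turned Slc2a1 (-0.0071) and Gpi1 (0.064), and Gpi1 was also at 0.0015 under filterByExpr and at 0.025 with the replicate block by number. Without single libraries the p16 estimates were -0.31 to 0.028 for Gapdh, -0.064 to 0.72 for Eno1, -0.19 to 0.13 for Pkm, -0.031 to 0.30 for Aldoa and -0.17 to 0.066 for Gpi1, while those of Slc2a1 and Ldha were 0.08 to 0.31 and 0.0043 to 0.31. Apart from the smaller number of genes or libraries, the cause was not tested. Counts were lowest for Gapdh, Eno1 and Slc2a1, and 1 UMI equals 0.85 to 72.1 CPM between the deepest and the shallowest library. For Gapdh and Eno1 the 3′ ends shared with other genes also make the counts uncertain. The parts of depth and of shared ends in these low counts were not tested.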
